A study of Mus musculus with 12 samples.

Results

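Genes for subunits of sodium and calcium pumps were followed in rods and in whole retina of mice. They were the rows of the deposited table with the symbols Atp1b1, Atp1b2, Atp1b3, Atp2b1, Atp2b2 and Atp2b4, which is 6 of the 56748 genes in the table. Rods were sampled by Rod-TRAP, in which ribosomes tagged by the RiboTag allele in rods are pulled down with their RNA. The retina samples were the total lysate before the pull-down, and they hold the RNA of rods as well as of all other retinal cells. All mice carried RiboTag and the i75-Rod-Cre transgene, a rhodopsin-promoter Cre active in rods. Control mice (labelled Pkm2_Rodhet) had 1 floxed and 1 normal Pkm2 allele, and Rodko mice had 2 floxed alleles. The control mice were therefore Cre-positive heterozygotes for the deletion in rods and not mice without a deletion. The deposited description gives an age of 2 weeks, and the study's methods an age of 2 months. There were 3 libraries in each of the 4 groups (control rods, Rodko rods, control retina and Rodko retina).

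The Na,K-ATPase moves sodium out of the cell and potassium into it. It is built from a catalytic alpha subunit and a beta subunit, and the beta subunit is needed for folding of the enzyme and its delivery to the plasma membrane. Atp1b1, Atp1b2 and Atp1b3 encode 3 different beta subunits. In photoreceptors the Na,K-ATPase of the inner segment removes the sodium that enters through the cyclic-nucleotide-gated channels of the outer segment in darkness. Plasma membrane calcium ATPases export calcium at the cost of ATP, and in photoreceptors they act in the inner segment and the synaptic terminal, whereas an exchanger removes calcium from the outer segment. Atp2b1, Atp2b2 and Atp2b4 each encode 1 such calcium pump.

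Libraries held 13458890 to 22790074 reads on genes, and control rods 2 was the deepest. Pkm, the targeted gene, was lower in Rodko rods than in control rods (log2 difference -1.20, SE 0.0838, limma adjusted p = 5.36e-05). It was also lower in Rodko retina than in control retina (log2 difference -0.65, SE 0.0742, limma adjusted p = 0.0219). All 10 rod markers tested were higher in rods than in retina in control mice, with a median log2 difference of 1.99. Of 58 markers of other cells (interneurons, ganglion cells, Müller glia, pigment epithelium, vessels and microglia), 56 were lower in rods and 1, Otx2, was higher. Their median log2 difference was -2.94, and none was at 0 reads in every rod library. Reads on markers of other cells were thus still counted in the Rod-TRAP libraries.

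All 6 genes are annotated as protein coding, and their positions are given in GRCm38. Atp1b1 lies on chromosome 1 from 164437109 to 164458355, on the minus strand. Atp1b2 lies on chromosome 11 from 69599736 to 69605942, on the minus strand. Atp1b3 lies on chromosome 9 from 96332655 to 96364442, on the minus strand. Of the calcium pump genes, Atp2b1 lies on chromosome 10 from 98914406 to 99026143, on the plus strand. Atp2b2 lies on chromosome 6 from 113743831 to 114042613, on the minus strand. Atp2b4 lies on chromosome 1 from 133699457 to 133801041, on the minus strand. Exons of Atp1b1 share 575 bases with Nme7 on the opposite strand, and Nme7 held 1936 reads over the 12 libraries against 39635 for Atp1b1. Whether strand was used in counting is not given in the sources used here, so reads in those shared bases cannot be assigned to 1 of the 2 genes.

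To set the most abundant in rods of the 3 calcium pump genes followed beside the least abundant of the 3, the 250 bases upstream of a RefSeq start of Atp2b1 and of Atp2b4 are shown (GRCm38.p6, each 5′ to 3′ on the strand of its gene). The Atp2b1 window is chr10:98914392-98914641, on the plus strand, and the Atp2b4 window is chr1:133753748-133753997, on the minus strand. The first overlaps the annotated start of its gene, and the second lies inside the gene, before an internal start. The windows are therefore unlike in position, and none at the annotated start of Atp2b4 (133801041) was available. Capitals mark CG dinucleotides.
Atp2b1: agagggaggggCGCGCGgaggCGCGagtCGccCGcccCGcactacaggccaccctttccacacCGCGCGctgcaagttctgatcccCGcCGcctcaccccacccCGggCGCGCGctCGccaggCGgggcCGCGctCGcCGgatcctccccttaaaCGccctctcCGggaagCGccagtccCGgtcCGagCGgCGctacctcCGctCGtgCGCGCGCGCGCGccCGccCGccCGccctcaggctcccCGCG
Atp2b4: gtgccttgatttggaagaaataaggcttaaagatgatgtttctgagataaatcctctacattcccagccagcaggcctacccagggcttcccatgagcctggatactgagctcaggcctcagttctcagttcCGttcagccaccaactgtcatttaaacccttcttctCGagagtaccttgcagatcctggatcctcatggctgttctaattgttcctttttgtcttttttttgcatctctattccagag
The Atp2b1 window held 43 CG dinucleotides and the Atp2b4 window 2, against a median of 6 over 32851 RefSeq windows. A second Atp2b1 window held 41. Of the windows of the genes lower in rods, that of Atp1b1 held 24, the 2 of Atp1b3 held 24 and 35, and the 3 of Atp2b2 held 16, 6 and 6. A high CG count was thus found upstream of Atp2b1, which was higher in rods, and of Atp1b1 and Atp1b3, which were lower. The letters TAATCC, searched on both strands over 250 bases before to 50 after each start, were in 0 of the 9 windows of the 5 matched genes and in 7.06% of all windows. Atp1b2 had no entry.

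Of the beta subunit genes, Atp1b2 had the highest level in rods and was the only one higher in rods than in retina. Levels are given as TMM-scaled CPM (reads on a gene relative to the size of the library), on 1 scale for all 12 libraries. In control rods the 3 libraries held 3414, 2892 and 3389 for Atp1b2, and in Rodko rods they held 3189, 3114 and 3224. In control retina the values were 1428, 1384 and 1405, and in Rodko retina 1427, 1309 and 1432. Every rod library was above every retina library, in both genotypes. Atp1b2 was 2.29-fold higher in rods than in retina of control mice (log2 difference 1.20, SE 0.0815, limma adjusted p = 5.10e-09, n = 3 per group). In Rodko mice it was 2.29-fold higher too (log2 difference 1.19, SE 0.0815, limma adjusted p = 4.41e-09, n = 3 per group). The beta-2 protein was first described as an adhesion molecule on glia and belongs to the Na,K-ATPase of photoreceptors.

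Atp1b1, whose product is the most widespread beta subunit of the body, showed the opposite distribution. Control rods held 33.4, 57.1 and 38.6 scaled CPM, and Rodko rods held 35.0, 27.4 and 25.2. Control retina held 307, 298 and 274, and Rodko retina 272, 272 and 262. The rod libraries lay far below all retina libraries, and control rods 2 was the highest of the 6 rod libraries. Levels in rods were 6.97-fold lower in control mice (log2 difference -2.80, SE 0.154, limma adjusted p = 5.56e-10, n = 3 per group). In Rodko mice they were 9.28-fold lower (log2 difference -3.21, SE 0.154, limma adjusted p = 1.06e-10, n = 3 per group).

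Atp1b3 encodes another broadly used beta subunit. It had 14.9, 17.0 and 17.5 scaled CPM in control rods and 16.0, 13.8 and 14.4 in Rodko rods. The retina libraries were higher, with 102, 70.3 and 110 in control retina and 94.3, 78.0 and 75.7 in Rodko retina. The retina libraries also spread more widely than those of Atp1b2, and rods and retina did not overlap. The gene was 5.61-fold lower in rods of control mice (log2 difference -2.49, SE 0.144, limma adjusted p = 9.16e-10, n = 3 per group) and 5.58-fold lower in rods of Rodko mice (log2 difference -2.48, SE 0.144, limma adjusted p = 7.40e-10, n = 3 per group).

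**Figure D1:**
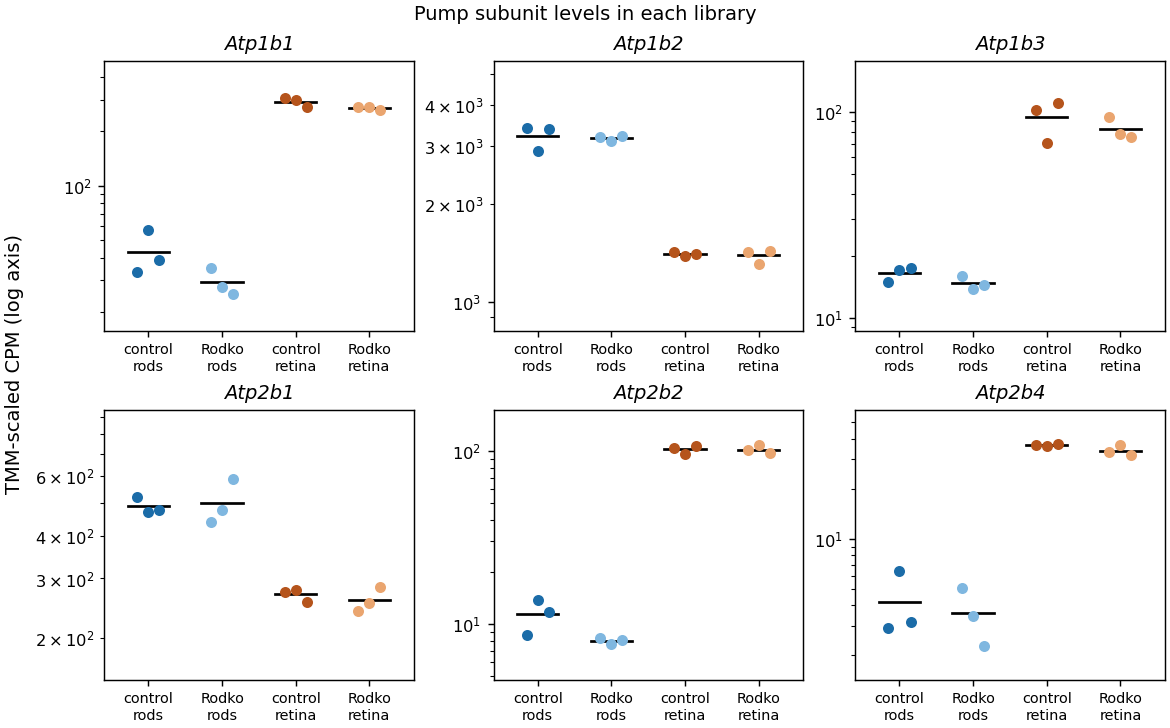
Level of each gene in each library, as TMM-scaled CPM on a log axis, with 1 point per library and a line at the mean of the 3 libraries of a group. Only Atp1b2 and Atp2b1 lie higher in rods than in retina, and in the other 4 genes every rod library lies below every retina library.

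The 3 plasma membrane calcium pump genes followed here, which are not the whole family, divided into 1 higher and 2 lower in rods. Atp2b1, which encodes a pump found in most cells, held 523, 471 and 478 scaled CPM in control rods and 442, 477 and 588 in Rodko rods. It held 274, 278 and 256 in control retina and 241, 255 and 283 in Rodko retina. Rods were above retina in both genotypes without overlap, and the widest spread was among the Rodko rods. The gene was 1.82-fold higher in rods of control mice (log2 difference 0.86, SE 0.0971, limma adjusted p = 1.47e-06, n = 3 per group) and 1.92-fold higher in rods of Rodko mice (log2 difference 0.94, SE 0.0971, limma adjusted p = 4.78e-07, n = 3 per group).

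Atp2b2 encodes a fast calcium pump best known from neurons and from hair cells of the inner ear. Control rods held 8.62, 13.8 and 11.6 scaled CPM, Rodko rods 8.29, 7.60 and 8.02, control retina 103, 96.1 and 106, and Rodko retina 100.5, 107 and 96.8. The rod libraries were thus all far below the retina libraries. The gene was 9.09-fold lower in rods of control mice (log2 difference -3.18, SE 0.131, limma adjusted p = 4.76e-11, n = 3 per group) and 12.7-fold lower in rods of Rodko mice (log2 difference -3.66, SE 0.131, limma adjusted p = 9.17e-12, n = 3 per group).

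Atp2b4 was the lowest of the 6 genes. It held 2.90, 6.44 and 3.17 scaled CPM in control rods and 5.05, 3.46 and 2.28 in Rodko rods, from 32 to 125 reads per library. In control retina it held 36.7, 36.1 and 37.0, and in Rodko retina 33.0, 36.7 and 31.7. The spread among rod libraries was wide next to that among retina libraries, but the ranges stayed apart. Levels in rods were 9.26-fold lower in control mice (log2 difference -3.21, SE 0.271, limma adjusted p = 5.78e-08, n = 3 per group) and 9.73-fold lower in Rodko mice (log2 difference -3.28, SE 0.271, limma adjusted p = 3.86e-08, n = 3 per group).

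Of the 6 genes, 2 were higher and 4 lower in rods in each genotype. Over all 25584 genes tested, 23.5% were higher and 35.5% lower in control rods than in control retina, and 23.9% were higher and 35.1% lower in the Rodko comparison. The median log2 difference over all genes was -0.37 in control mice and -0.32 in Rodko mice. This median moves with the scale on which rods and retina are set. With scaling by total reads, it was -0.76 in control mice, and 2184 genes were higher and 12706 lower, against 6001 higher and 9083 lower with TMM. Under that scaling Atp1b2 was still higher in control rods (log2 difference 0.65), as was Atp2b1 (log2 difference 0.31, limma adjusted p = 0.00944). On the deposited values, where each fraction keeps its own scale, the differences were 0.60 for Atp1b2 and 0.27 for Atp2b1 (limma adjusted p = 0.0302). The 4 lower genes were lower still in control rods with total reads. Their log2 differences were then -3.35 for Atp1b1, -3.04 for Atp1b3, -3.73 for Atp2b2 and -3.76 for Atp2b4. Folds between rods and retina, and rod levels in percent of retina, are given on the TMM scale and move with the scaling. The comparison sets ribosome-bound RNA against total RNA, so a difference between cells and a difference in ribosome loading cannot be told apart. In these bulk samples fewer cells of a type and less RNA per cell cannot be told apart either.

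**Figure D2:**
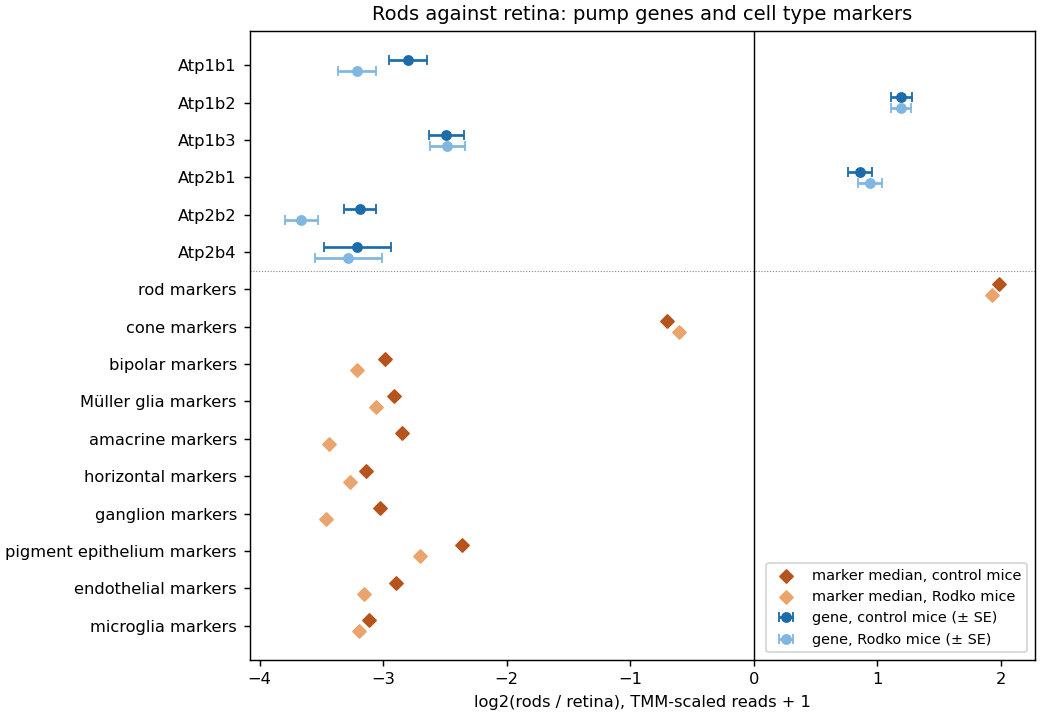
The log2 difference of rods from retina on TMM-scaled reads, for the 6 genes in control and Rodko mice (points with SE) and as the median of each marker list (diamonds). Atp1b2 (1.20 in control mice) and Atp2b1 (0.86) lie above 0 with the rod markers, and the other 4 genes lie between -3.66 and -2.48, on the same side as the markers of other cells.

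Per kilobase of exon, which allows genes to be compared, the order of levels in control rods was Atp1b2 (791 ± 72.0 scaled CPM per kilobase, mean ± SD, n = 3), Atp2b1 (32.2 ± 1.86), Atp1b1 (14.0 ± 4.05), Atp1b3 (6.89 ± 0.588), Atp2b2 (0.899 ± 0.205) and Atp2b4 (0.341 ± 0.161). In control retina it was Atp1b2 (344 ± 5.33), Atp1b1 (95.0 ± 5.52), Atp1b3 (39.4 ± 8.82), Atp2b1 (17.7 ± 0.779), Atp2b2 (8.07 ± 0.402) and Atp2b4 (2.99 ± 0.0391). Atp2b1 therefore stood above Atp1b1 and Atp1b3 in rods and below both in retina. The Rodko groups had the same orders as the control groups, and no neighbours in any of the 4 orders overlapped between libraries. The step from the first gene to the second was 24.5-fold in control rods and 3.62-fold in control retina. With the longest transcript as gene length the orders were the same, but these steps were 12.5-fold and 3.30-fold, and in retina the libraries of Atp1b3 and Atp2b1 then overlapped.

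Within the 3 beta subunit genes, Atp1b2 made up 97.4% ± 0.785 (SD, n = 3) of the level per kilobase in control rods and 98.0% ± 0.256 in Rodko rods. In retina its share was 71.9% ± 0.905 in control and 73.6% ± 1.25 in Rodko mice. Atp1b1 took 1.76% ± 0.674 in control rods against 19.9% ± 1.17 in control retina, and Atp1b3 took 0.855% ± 0.120 against 8.21% ± 1.70. The ratio of Atp1b2 to Atp1b1 ranged from 38.2 to 77.2 over the control rod libraries and from 3.50 to 3.87 over the control retina libraries. A share is formed within a library and does not move with the scaling.

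Of the 3 calcium pump genes followed, Atp2b1 made up 96.3% ± 1.18 (SD, n = 3) in control rods and 97.2% ± 0.735 in Rodko rods. In retina it made up 61.5% ± 1.91 in control and 61.2% ± 2.83 in Rodko mice. Atp2b2 made up 28.1% ± 1.66 in control retina and 2.71% ± 0.716 in control rods, and Atp2b4 made up 10.4% ± 0.274 and 1.03% ± 0.513. These are shares of the 3 genes only, and counting further genes of the family would lower them. The Atp2b1 share depends on the gene length used, since its annotated exons span 15218 bases in all and its longest transcript 7130. With the longest transcript of each gene the share of Atp2b1 was 97.7% in control rods and 72.1% in control retina.

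**Figure D3:**
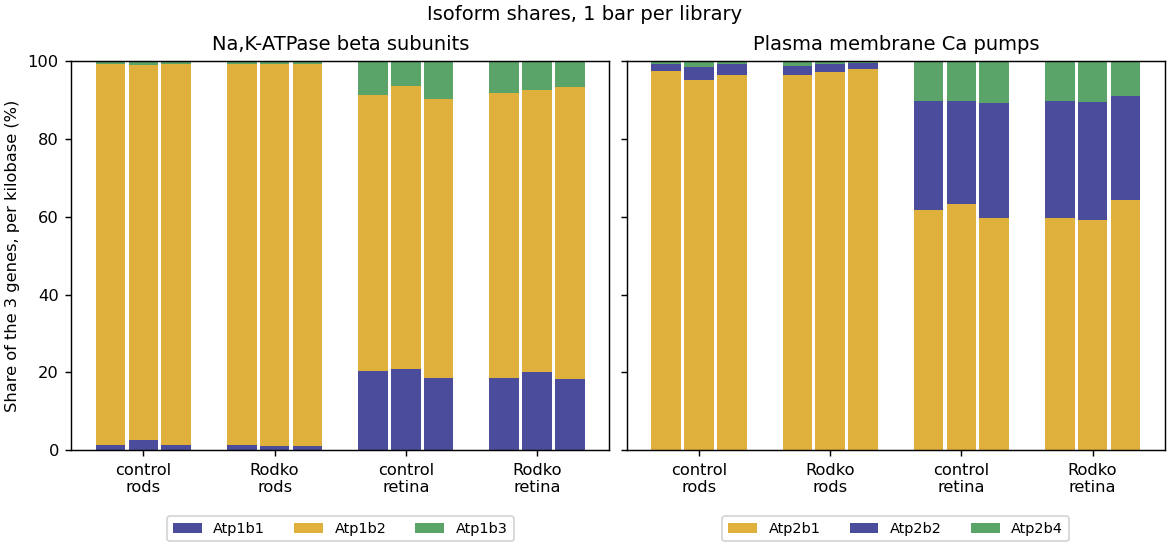
Share of each gene in the summed level per kilobase of the 3 beta subunit genes (left) and of the 3 calcium pump genes (right), as percent, with 1 bar per library. Atp1b2 and Atp2b1 fill nearly all of every rod bar and a smaller part of every retina bar.

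The 4 genes lower in rods were set beside markers of other retinal cells, as the rod level in percent of the retina library with the same number. In control mice Atp1b1 stood at 14.7% ± 4.18 (SD, n = 3), Atp1b3 at 18.2% ± 5.21, Atp2b2 at 11.2% ± 2.99 and Atp2b4 at 11.4% ± 5.56. Summed markers of Müller glia stood at 14.9% ± 2.25, those of amacrine cells at 16.1% ± 3.27 and those of ganglion cells at 11.4% ± 2.63. Cone markers stood at 63.2% ± 7.71 and rod markers at 422% ± 44.5. Horizontal, pigment epithelium, endothelial and microglia sums stood at 17.6%, 17.2%, 14.7% and 11.3%. The bipolar sum, whose largest members in rods were Otx2 and Prkca, stood at 72.7% ± 1.97. In control rods and retina, Otx2 held 368 and 199 scaled CPM, and Prkca 268 and 279. Of the 10 bipolar markers, 8 were lower in rods, and the list's median log2 difference was -2.98. The 4 genes thus stood near the sums of these cell types other than bipolar cells, and far below the cone sum. They also lay below the bipolar sum, which was not typical of the markers in its list. All 58 markers of other cells together stood at 21.9% ± 2.63 in control mice and, without Otx2, at 17.6% ± 2.77. Otx2, which photoreceptors also express, and Prkca were singled out after their values were seen. The part of other cells' RNA in the rod levels of these 4 genes was not tested. Atp1b2 stood at 230% ± 18.0 and Atp2b1 at 182% ± 11.4, both above 100 in every pair.

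**Figure D4:**
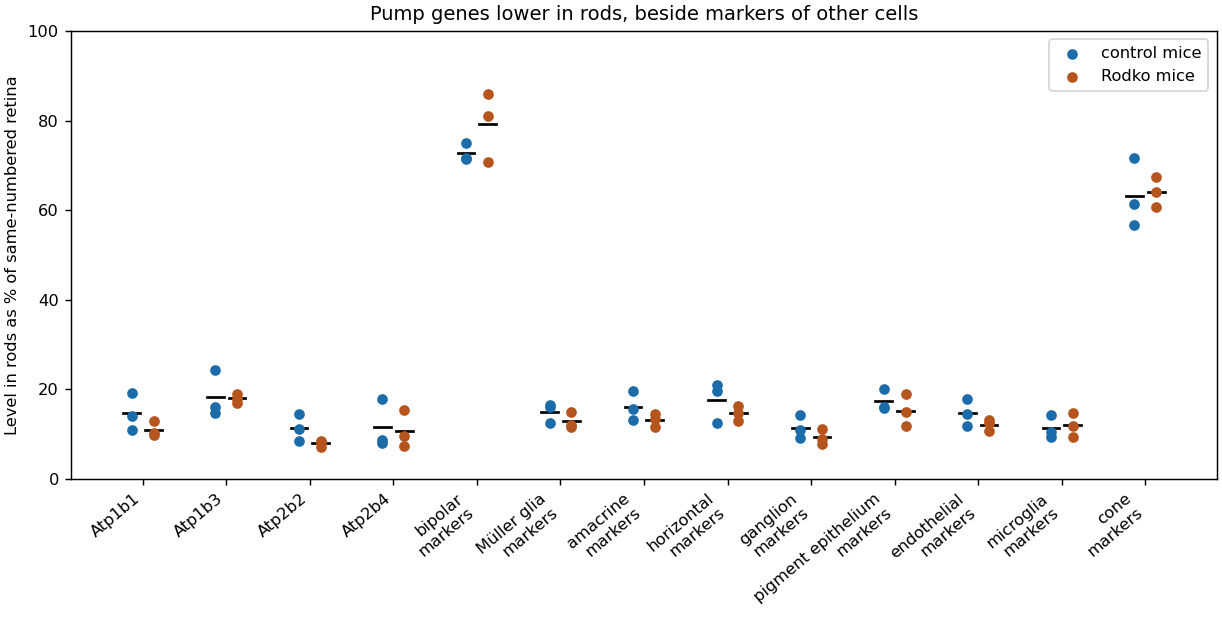
Level in rods as percent of the retina library with the same number, for the 4 genes lower in rods and for the summed markers of 9 cell types, with 1 point per pair of libraries and a line at the mean. The 4 genes lie between 7.09% and 24.2%, as do 7 of the 9 marker sums. The cone sum lies higher, as does the bipolar sum, whose largest members in rods are Otx2 and Prkca.

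Loss of both Pkm2 alleles in rods was compared with loss of 1. No gene of the 6 passed the threshold in rods, where 4 of 20658 genes did (0.0194%), and the smallest limma adjusted p of the 6 was 0.932. The 2 genes with the highest levels in rods had the differences closest to 0. For Atp1b2 the log2 difference of Rodko from control rods was -0.013 (SE 0.0934), and for Atp2b1 it was 0.033 (SE 0.106). Of the minor genes, Atp1b1 had a log2 difference of -0.53 (SE 0.180, limma unadjusted p = 0.0120) and Atp2b2 one of -0.47 (SE 0.186, limma unadjusted p = 0.0251). These were 2 of 6 genes at an unadjusted p under 0.05, which 986 of all genes tested (4.77%) also reached. By edgeR and DESeq2, 0 of the 6 passed, and DESeq2 gave Atp2b4 no adjusted p. The rod libraries of the genotypes did not overlap for Atp2b2, as for 9.89% of all genes, and they overlapped for Atp1b1. Control rods 2 had the highest value of both genes, and without it the differences were -0.30 for Atp1b1 and -0.31 for Atp2b2. Atp1b3 differed by -0.15 (SE 0.135) and Atp2b4 by -0.18 (SE 0.343).

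Markers of other cells moved in the same direction in these libraries. Their summed level was 1557 to 1772 scaled CPM in control rods and 1370 to 1501 in Rodko rods. Without Otx2 the sums were 1161 to 1405 and 1009 to 1143. Of the 58 markers, 48 had a log2 difference below 0 between Rodko and control rods, and 0 passed the threshold by limma. Their median was -0.33, against 0.0060 over all genes tested. In retina the markers below 0 were 10 of 10 bipolar, 8 of 8 Müller glia, 6 of 8 amacrine and 4 of 5 horizontal. So were 6 of 8 ganglion, 3 of 7 pigment epithelium, 6 of 6 endothelial and 6 of 6 microglia markers. List medians ran from -0.46 to -0.089 in rods and from -0.25 to 0.53 in retina. Summed levels in retina were 7098 to 8137 scaled CPM in control and 6813 to 7219 in Rodko mice, and these ranges overlapped. The part of the markers in the rod values of Atp1b1 and Atp2b2 was not tested.

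In retina, 0 of the 6 genes passed by limma, edgeR or DESeq2, and 0 had an unadjusted limma p under 0.05, against 1 of 25590 genes past the threshold (0.00391%) and 1069 (4.18%) at an unadjusted p under 0.05. The log2 differences were -0.11 (SE 0.0695) for Atp1b1, -0.15 (SE 0.140) for Atp1b3, -0.10 (SE 0.0866) for Atp2b4, -0.039 (SE 0.0795) for Atp2b1 and 0.013 (SE 0.0745) for Atp2b2. For Atp1b2 the difference was -0.0019 (SE 0.0749). Only Atp1b1 had retina libraries that did not overlap between genotypes, as did 9.29% of all genes. The difference between the genotype effects in rods and in retina passed for none of the 6 genes, nor for any of all genes tested (0%). It was largest for Atp2b2 (log2 -0.48, SE 0.185, limma unadjusted p = 0.0211, adjusted p = 0.978), and 1 of 6 genes and 1128 of all genes had an unadjusted p under 0.05. By edgeR and DESeq2, 0 of the 6 passed this comparison.

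**Figure D5:**
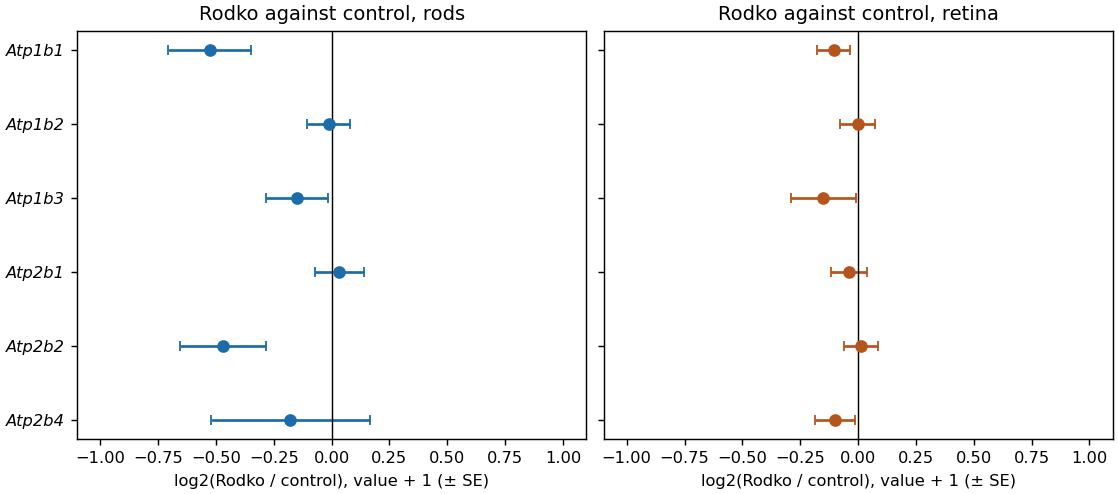
The log2 difference of Rodko from control, with SE, for the 6 genes in rods (left) and in retina (right), on log2 of the deposited value plus 1. Atp1b2 and Atp2b1 sit next to 0 in both panels, and Atp1b1 (-0.53) and Atp2b2 (-0.47) lie lowest in rods.

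The list of other pump, exchanger and partner genes held 41 genes, of which 36 were tested. In control mice 6 of these were higher and 24 lower in rods, against 23.5% higher and 35.5% lower over all genes. Their median log2 difference was -2.37, against -0.37 over all genes. With total reads the counts were 4 higher and 27 lower of 36, against 2184 higher and 12706 lower of all 25895 genes tested. Slc24a1, the sodium-calcium-potassium exchanger of the rod outer segment, was higher in rods (4673 against 1411 scaled CPM, log2 difference 1.73, limma adjusted p = 4.48e-10). Bsg, which encodes basigin, a partner subunit of plasma membrane calcium pumps, was higher as well (1151 against 577, log2 difference 0.99, limma adjusted p = 2.12e-06). Both stayed higher with every scaling used.

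Nptn, which encodes neuroplastin, the other partner of these pumps, had a log2 difference of 0.33 (limma adjusted p = 0.00129), which turned to -0.22 with total reads and -0.27 on the deposited values. Atp2c1, a calcium and manganese pump of the Golgi, had one of 0.76, which was 0.21 with total reads (limma adjusted p = 0.0259) and 0.17 on the deposited values (limma adjusted p = 0.0927). Slc24a3, another exchanger of the Slc24a family, was lower in rods (13.1 against 149 scaled CPM, log2 difference -3.53, limma adjusted p = 2.85e-11). In Rodko mice the counts of listed genes were again 6 higher and 24 lower, against 23.9% and 35.1% of all genes. The median was -1.86, against -0.32 over all genes. Between genotypes 0 of 31 listed genes passed in rods and 0 of 36 in retina by limma, against 0.0194% and 0.00391% of all genes. In each, 2 listed genes had an unadjusted limma p under 0.05, which 4.77% of all genes reached in rods and 4.18% in retina.

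Genes with the most similar profile over the 12 libraries were found by the distance between log2 levels, each centred on its mean, among 10405 genes. Nearest to Atp1b2 was Lrig1 (distance 0.129 log2 units), and Srp54b, which has a near-identical copy and so an uncertain count, was also close (0.174). The genes nearest to Atp2b1 were Acly (0.170), Acsl6 (0.231) and Ipo7 (0.235). Acly makes cytosolic acetyl-CoA from citrate, and Acsl6 activates long-chain fatty acids. Atp1b1 had as neighbours Gng2 (0.265) and Six3 (0.339). Those of Atp2b2 were Rap1gap2 (0.244), Kif5c (0.327) and Slc6a11 (0.348), the last a GABA transporter. For Atp1b3 and Atp2b4 the nearest genes, Cyth3 (0.516) and Insyn2a (0.580), were farther away. The neighbours depend on the measure, since by Pearson correlation only 5 of the 18 nearest genes were shared. All distances share the same 12 libraries and are dominated by the step between rods and retina.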

How the data were processed

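RNA was sequenced from 12 libraries, 3 in each of 4 groups mapped from the sample labels. The labels' processing notes name CASAVA 1.8.2, HISAT2, DESeq2, edgeR and the build GRCm39. The annotation, the counter and the strand setting are not given in the sources used here. The authors deposited 1 table of signal, which is reads per gene divided by a size factor, with separate scaling of the 6 rod and of the 6 retina libraries. Dividing by the value of 1 read gave whole numbers for 99.993% of positive values (tolerance 0.051). Fractions were put on 1 scale with TMM on these reads.

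Rods and retina were compared by limma 3.58.1 with a variance trend on log2 of scaled reads plus 1, in 1 fit of 12 libraries. Genotypes were compared within each fraction on log2 of the deposited values plus 1. Genes needed a mean of at least 1 in 1 group, and p-values were adjusted by Benjamini-Hochberg over all genes (threshold 0.05). edgeR 4.0.16 (quasi-likelihood) and DESeq2 1.42.0 on the recovered reads, other scalings, filters and pseudocounts, a replicate block and leaving out each library were alternatives. Scripts were tested on simulated data. Gene positions and exon lengths came from GENCODE for GRCm38, not the authors' build.

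Rod and retina libraries with the same genotype and number deviated together (r from 0.294 to 0.586 in all 6 pairs), so the numbers pair them; the labels do not say that they come from the same mouse. Where nothing says that replicates came from separate mice, p-values measure only the spread between these libraries. Replicates differed by more than sampling noise.

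The members and the lists were chosen with earlier results of these data known. All members were named, other pump genes only with a mean of at least 100 scaled reads in a group, and the 3 genes nearest to each member by profile, of which 2 of the 18 are not reported here.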

Additional observations from a re-analysis of the deposited data

How the results depend on the processing

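In every scaling, tool, filter and pseudocount tried and without each library in turn, 2 of the 6 genes were higher and 4 lower in rods in both genotypes, and 0 passed between genotypes or in the difference of the genotype effects. Fitting the replicate block, which pairs rods with retina by number, left those calls as they were (Atp1b2 log2 difference 1.20 in control mice, Atp1b1 -2.80). Control and Rodko libraries share only a number (r between -0.296 and 0.071), and a block on it moved the calls over all genes in rods from 4 lower to 4 higher and 4 lower, and in retina from 1 to 0.

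With total reads the level per kilobase in control rods was 655 for Atp1b2 and 26.7 for Atp2b1, and in control retina 418 and 21.5. With the longest transcript as gene length, Atp2b1 stood at 68.8 in control rods and 37.8 in control retina, and Atp1b2 at 375 in control retina, while the shares were 70.0% for Atp1b2 in control retina and 97.7% and 72.1% for Atp2b1 in control rods and retina. By Pearson correlation, 5 of the 18 nearest genes were shared.

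Differences near 0 that did not pass turned sign. The interaction of Atp1b3 was -0.0051 with RLE scaling and -0.025 with total reads, and the retina difference of Atp2b2 was -0.0030 in 1 fit of all 12 libraries. Without 1 library at a time, the interaction ranged from -0.066 to 0.033 for Atp1b2, from -0.12 to 0.21 for Atp1b3, from -0.030 to 0.15 for Atp2b1 and from -0.37 to 0.30 for Atp2b4. The rod difference ranged from -0.088 to 0.031 for Atp1b2, from -0.088 to 0.13 for Atp2b1 and from -0.45 to 0.18 for Atp2b4, the last being 0.18 without control rods 2. In retina it ranged from -0.032 to 0.043 for Atp1b2, from -0.11 to 0.017 for Atp2b1 and from -0.024 to 0.045 for Atp2b2. The cause was not tested.

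Over all genes, 17 were called in rods in 1 fit of 12 libraries, 7 with DESeq2 and 0 without the variance trend, and in retina 0 with at least 10 reads in every library. The interaction had 8 higher and 4 lower calls without the variance trend and 1 call with DESeq2. Without 1 library at a time, 2 to 4 genes were called lower in rods, and without control rods 3 another 4 were called higher. In retina 0 to 2 genes were called lower, and without control retina 3 there were 4 called higher. Atp2b4 had 32 to 125 reads per rod library, the fewest of the 6 genes.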
